A study of Homo sapiens with 4 samples.

Results

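The 9 genes described here handle iron in the cell: the ferritin subunit genes FTH1 and FTL, the uptake genes TFRC and STEAP3, the regulators IREB2, ACO1 and FBXL5, the ferritin receptor gene NCOA4, and the metallothionein gene MT2A. They were chosen by symbol, and all 9 were found among the 21372 genes of the count table and passed the filter on low counts. The RNA that came down with the protein P5CS was set against input RNA from NCI-H1299 cells, an established human line that the labels give as lung adenocarcinoma. The cells were grown in RPMI1640 with fetal bovine serum, per the labels' protocols, which name no treatment, and there were 2 libraries from P5CS immunoprecipitation (P5CS IP) and 2 input libraries. The series title states that P5CS, a mitochondrial enzyme of proline synthesis encoded by ALDH18A1, acts as an RNA-binding protein in translation, and the comparison asks which RNAs it recovers. The design text of the series names LACE-seq and an IgG control instead, but the title names RIP-seq and the samples are titled P5CS or input, and no IgG library was analysed here.

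Cells take up iron when transferrin, the iron carrier of plasma, binds the transferrin receptor TFRC and enters endosomes, where the metalloreductase STEAP3 reduces the iron for export to the cytosol. Surplus iron is stored in ferritin, a hollow shell built from heavy (FTH1) and light (FTL) chains, and is released when the receptor NCOA4 delivers ferritin to the lysosome. Much of the control is exerted on mRNA: the iron regulatory proteins, encoded by ACO1 and IREB2, bind a stem-loop called the iron-responsive element (IRE). Bound to the leader of a ferritin mRNA they block its translation, and bound to the tail of TFRC mRNA they stabilise it. FBXL5 is the iron-sensing subunit of a ubiquitin ligase that removes the IREB2 protein. MT2A encodes a small cysteine-rich protein known for binding zinc and copper rather than for iron storage.

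The element is shown for FTL, the ferritin mRNA with the lower P5CS IP to input ratio, whose annotated start lies close enough for the sequence table to reach it. FTH1 was not searched. The run lies at chr19:48965338-48965358 (GRCh38.p14, plus strand), bases 30 to 50 of the annotated transcript, as the RefSeq promoter table gives it, with the loop in capitals.
FTL: ttgcttcaaCAGTGTttggac
The 5 bases before the loop and the 5 after it can pair at 5 of 5 positions, G with T included. The pattern searched within 50 bases after a gene start was a C, 5 bases of any kind, and the loop CAGTGN. It was found on the sense strand in 1.67% of 35116 windows and on the antisense strand in 1.66%. A match to this pattern alone is therefore a description of letters and no sign of a working element. Pairing around the loop was not part of the pattern, and how often a match also pairs was not counted. The windows of TFRC, STEAP3, IREB2, ACO1, FBXL5, NCOA4 and MT2A held no match on the sense strand. They end 50 bases after the gene start, so they could not reach an element in the tail, as in TFRC mRNA. The count table gives a value per gene and does not show which part of a transcript was recovered.

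Total gene counts ranged from 31489455 to 34730866 in the P5CS IP pair and from 40911717 to 46339235 in the input pair. Of the epithelial markers, KRT8 and KRT18 were abundant and EPCAM had 0 counts in the IP libraries and 6 to 8 in the inputs, while the mesenchymal marker VIM had 105859 to 181964 counts. The lung lineage marker NKX2-1 had 20 and 52 counts in the IP libraries and 8 and 0 in the inputs. The erythroid markers HBA1, HBA2 and HBB, of interest since red cell precursors are rich in iron genes, came to 4 and 18 counts in the inputs and 5 and 62 in the IP libraries. The leukocyte markers PTPRC and LYZ summed to 6 to 24 counts. Of the markers listed, HBG1, HBG2, CD3E, CD68, CDH1, NAPSA, SFTPB and SFTPC were not analysed here. Whether replicate libraries stem from separate cultures is not stated in the labels, so the p-values reflect a spread that may be technical.

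Both ferritin mRNAs made up less of the P5CS IP than of the input, FTL by 3.78-fold and FTH1 by 2.23-fold, whereas STEAP3 was 1.19-fold higher and TFRC, at 1.13-fold, did not pass. Of the 9 genes, 5 were lower (FTL, FTH1, NCOA4, ACO1 and MT2A), 2 were higher (STEAP3 and FBXL5) and 2 did not pass (TFRC and IREB2), by edgeR's quasi-likelihood test with Benjamini-Hochberg adjusted p under 0.05. Among all 17304 genes tested, 25.6% were lower, 25.4% were higher and 51.0% were called in either direction, so a call by itself was common. In TMM-scaled CPM, both IP libraries lay below both inputs for 5 of the 9 genes and above both for 3, and IREB2 overlapped, where 38.2% and 37.7% of all genes tested lay clear of overlap in these directions and 75.9% in either. In the authors' FPKM, which carry no TMM factor, MT2A overlapped instead and IREB2 lay above both inputs. The median log2 fold change of the 9 was -0.45, against -0.01 over all genes tested. With or without TMM scaling, values are relative to the rest of a library, so less recovery of a gene and more recovery of other RNAs cannot be told apart. The ferritin genes together took 0.017% ± 0.000146 of IP counts and 0.0439% ± 0.00145 of input counts, and TFRC with STEAP3 took 0.0717% ± 0.00338 and 0.0517% ± 0.000174 (SD, n = 2 each).

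FTL (gene ID 2512, chromosome 19, 48965309 to 48966879, GRCh38.p14) encodes the ferritin light chain, which promotes mineral formation inside the shell. It stood at 88.24 and 87.79 CPM (counts scaled by library size and TMM factor) in the IP libraries and at 324.7 and 339.9 CPM in the inputs, replicate 1 first here and throughout. The IP pair differed little and lay far below both inputs, with no overlap. The log2 fold change was -1.92 (SE 0.0806, 95% interval -2.10 to -1.74, adjusted p = 1.86e-08 by the edgeR test named above), lower than that of all but 5.31% of genes tested. FTH1 (chromosome 11, 61964285 to 61967634) encodes the heavy chain, which carries the ferroxidase site that oxidises incoming iron. It stood at 64.95 and 68.88 CPM in the IP libraries and at 141.7 and 156.8 CPM in the inputs, again without overlap. Its log2 fold change was -1.16 (SE 0.0934, interval -1.36 to -0.95, adjusted p = 1.96e-06, same edgeR test).

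Relative to the heavy chain mRNA, the light chain mRNA was lower in both IP libraries than in both inputs. The ratio of FTL to FTH1 per length (the authors' FPKM), in which the scaling of a library cancels, was 2.48 and 2.33 in the IP libraries against 4.18 and 3.96 in the inputs. The groups did not overlap, and the mean log2 ratio was 1.27 ± 0.0652 in the IP and 2.03 ± 0.0565 in the input (SD, n = 2 each), a drop of 1.69-fold. An exact two-sided permutation test gave p = 0.333, which is the smallest that 2 libraries against 2 allow, so the test cannot pass any usual threshold. With both subunits summed with their pseudogenes the log2 difference was -0.74 instead of -0.76.

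Ferritin genes have many processed pseudogenes, and reads that match both may have been divided or dropped in the counting, for which the sources used here give no settings. The table held 4 FTH1 pseudogenes, with 16 to 28 counts in all per library, and 2 FTL pseudogenes, with 18 to 83. The latter came to 2.16 and 2.75% of the FTL count in the IP libraries, against 0.147 and 0.295% in the inputs. FTLP12, which its symbol names as an FTL pseudogene, had 71 and 73 counts in the IP libraries and 6 and 32 in the inputs, the opposite direction to FTL itself. Its log2 fold change of 2.09 passed (adjusted p = 0.0351, edgeR quasi-likelihood test), and the call ended without the second IP library (2.02, adjusted p = 0.0751) and without the first input (1.38, adjusted p = 0.111), and without the second input the value was 3.61. FTH1P23 had 18 and 0 counts in the IP libraries against 2 and 14, and FTLP3 had 2 and 10 against 12 and 10, and neither passed.

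**Figure D1:**
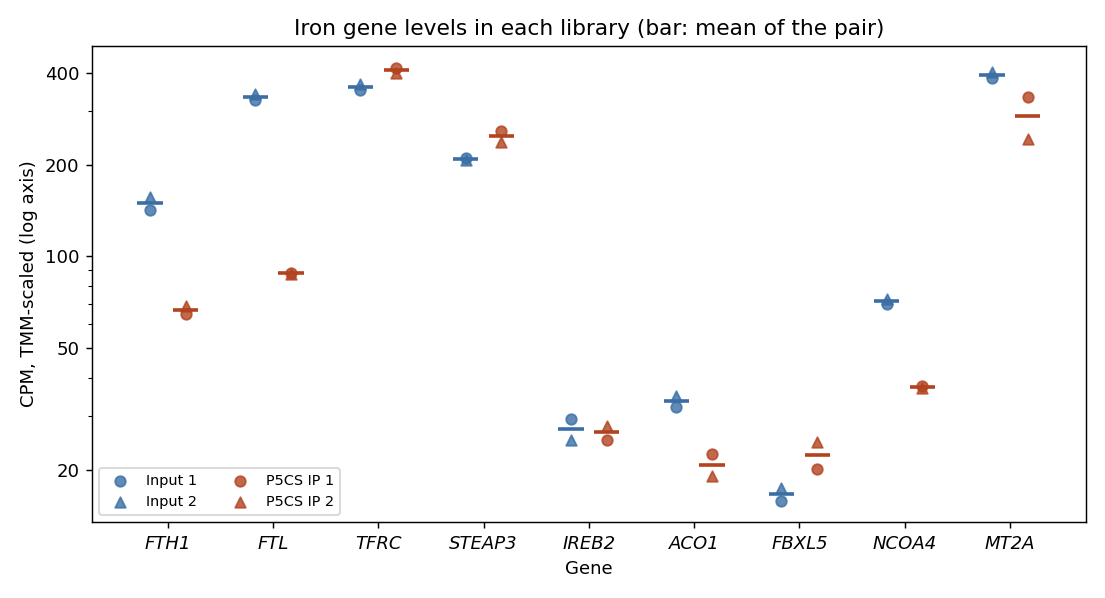
Level of each of the 9 genes in each library, in TMM-scaled CPM on a log axis, with circles for replicate 1, triangles for replicate 2 and a bar at the mean of the pair. The FTL and FTH1 points of the P5CS IP lie well below those of the input, the TFRC and STEAP3 points lie slightly above, and those of IREB2 overlap on this scale.

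TFRC (chromosome 3, 196049284 to 196082090), the receptor that brings transferrin-bound iron into the cell, showed a small difference. It stood at 415.7 and 398.6 CPM in the IP libraries and at 352.3 and 366.8 CPM in the inputs. Both IP libraries lay above both inputs, yet the log2 fold change of 0.18 did not pass (SE 0.0739, interval 0.02 to 0.34, adjusted p = 0.0651, edgeR). Its standing depended on the scaling: it passed at 0.45 with total counts only and at 0.20 with DESeq2 size factors in the edgeR test or with DESeq2 itself, and its sign turned with the length trend removed (-0.11, adjusted p = 0.244, same edgeR test). Without the second P5CS IP library it also passed (0.24, adjusted p = 0.00774).

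STEAP3 (chromosome 2, 119223834 to 119265652), the endosomal ferrireductase, stood at 257.2 and 237.4 CPM in the IP libraries and at 209.5 and 206.9 CPM in the inputs. The groups did not overlap, and the log2 fold change was 0.25 (SE 0.0798, interval 0.07 to 0.42, adjusted p = 0.0233, edgeR quasi-likelihood test). Removal of the length trend ended the call (0.11), as did leaving out IP library 1 (0.19), input 1 (0.26) or input 2 (0.24), and with total counts only the value was 0.51. The STEAP3 to TFRC ratio per length was 0.88 and 0.848 in the IP libraries and 0.846 and 0.803 in the inputs. These 2 uptake genes kept nearly the same proportion to each other in all 4 libraries.

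The order of levels per length differed between IP and input. On the authors' FPKM scale, which divides counts by gene length and library total, the input order was MT2A at 592.5 ± 12.3, FTL at 347.6 ± 7.27, FTH1 at 85.46 ± 5.13, TFRC at 50.45 ± 0.861, STEAP3 at 41.59 ± 0.841 and NCOA4 at 16.26 ± 0.199 (SD, n = 2). FBXL5 at 4.308 ± 0.239 and ACO1 at 4.039 ± 0.196 were close neighbours. FBXL5 lay slightly above ACO1 in each input (4.139 against 3.901, and 4.477 against 4.178). IREB2 was lowest at 2.609 ± 0.32. In the P5CS IP, FTH1 at 46.07 ± 1.58 came below TFRC at 68.71 ± 2.55 and STEAP3 at 59.4 ± 3.79, although it had been above both in each input. MT2A at 520.7 ± 120.0 and FTL at 110.7 ± 1.21 still led, FBXL5 stood at 6.964 ± 0.95, and IREB2 at 3.063 ± 0.21 and ACO1 at 3.012 ± 0.385 were within their spread. TFRC amounted to 1.57 and 1.42 times FTH1 in the IP libraries, against 0.609 and 0.573 times FTH1 in the inputs, on the FPKM scale. FTL was 1.58 and 1.64 times TFRC in the IP libraries and 6.87 and 6.91 times in the inputs. These pairs were picked after their values were seen. The exact permutation test gave p = 0.333 for each, the smallest that 2 libraries against 2 allow, so it cannot decide. Division by length does not remove the trend of the IP to input difference with gene length. With that trend removed the log2 fold changes were -0.74 for FTH1, -0.11 for TFRC and 0.11 for STEAP3. These lie closer together than the -1.16, 0.18 and 0.25 of the main fit. Whether FTH1 would still come below TFRC and STEAP3 was not tested.

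**Figure D2:**
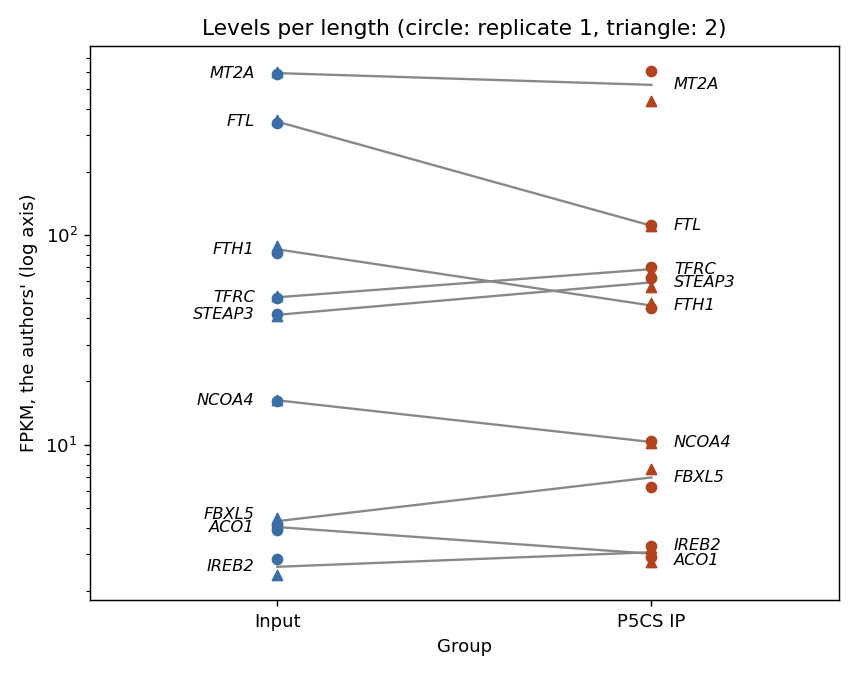
Level per length of the 9 genes in input and P5CS IP, in the authors' FPKM on a log axis, with circles for replicate 1, triangles for replicate 2 and lines joining the group means. The FTH1 line crosses those of TFRC and STEAP3, and the ACO1 line crosses that of IREB2. The trend of the difference with gene length was not removed from these values.

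Of the mRNAs of the iron regulatory proteins, ACO1 was lower and IREB2 did not pass. For their ratio per length the exact permutation test gave p = 0.333, the smallest that 2 libraries against 2 allow, so it cannot decide. ACO1 (chromosome 9, 32384643 to 32454769) encodes the cytosolic aconitase that turns into an IRE-binding protein when it loses its iron-sulfur cluster. It stood at 22.53 and 18.99 CPM in the IP libraries and at 32.08 and 34.93 CPM in the inputs, with both IP libraries below both inputs. Its log2 fold change was -0.69 (SE 0.14, interval -1.0 to -0.38, adjusted p = 0.00172, edgeR quasi-likelihood test), which was -0.42 with total counts only and -1.04 with the length trend removed. IREB2 (chromosome 15, 78437431 to 78501453) encodes the related protein that is controlled by degradation. It stood at 25.07 and 27.90 CPM in the IP libraries and at 29.23 and 24.97 CPM in the inputs, so the groups overlapped. Its log2 fold change was -0.03 (interval -0.34 to 0.28, adjusted p = 0.871, same edgeR test), an interval that leaves room for a change of either sign. With the length trend removed IREB2 was lower (-0.47, adjusted p = 0.0151, edgeR), as ACO1 was, and with total counts only it stood at 0.23 and did not pass.

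FBXL5 (chromosome 4, 15604381 to 15681569), whose protein senses iron and marks IREB2 for destruction, rested on the fewest input counts of the 9, 595 and 729. It stood at 20.07 and 24.61 CPM in the IP libraries and at 15.83 and 17.40 CPM in the inputs, without overlap. The log2 fold change of 0.43 passed narrowly (SE 0.161, interval 0.07 to 0.78, adjusted p = 0.0469, edgeR quasi-likelihood test). DESeq2 did not call it (0.45), nor did edgeR after removal of the length trend (0.38) or when IP library 2 (0.31), input 1 (0.36) or input 2 (0.50) was left out, and with total counts only the value was 0.69. NCOA4 (chromosome 10, 46005088 to 46030623), which hands ferritin to the autophagy machinery, was lower with little spread. It stood at 37.69 and 37.14 CPM in the IP libraries and at 69.99 and 72.38 CPM in the inputs, and the groups lay far apart. Its log2 fold change was -0.93 (SE 0.0998, interval -1.15 to -0.71, adjusted p = 1.76e-05, same edgeR test). The reduction was as large with the length trend removed (-1.02).

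MT2A (chromosome 16, 56608584 to 56609497), the shortest gene model of the 9 at 606 nt, varied most between the IP libraries. It stood at 333.2 and 242.4 CPM in the IP libraries and at 385.1 and 403.2 CPM in the inputs. These IP values lay below both inputs but were themselves far apart, and in the authors' FPKM the first IP library, at 605.5, lay above both inputs, at 583.8 and 601.3, with the second at 436.0. The log2 fold change was -0.45 (SE 0.124, interval -0.73 to -0.18, adjusted p = 0.0104, edgeR quasi-likelihood test), and it was -0.70 without the first and -0.21 without the second P5CS IP library. The call ended with total counts only (-0.19), and the sign turned with the length trend removed (0.29, adjusted p = 0.0731, same edgeR test). In the authors' deposited table the log2 fold change of MT2A was -0.43 with an SE of 0.239, and the adjusted p was 0.149. DESeq2 run here on the same counts gave -0.43 with an SE of 0.123 and called it (adjusted p = 0.00163, DESeq2 Wald test). The reason for this difference is not known.

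**Figure D3:**
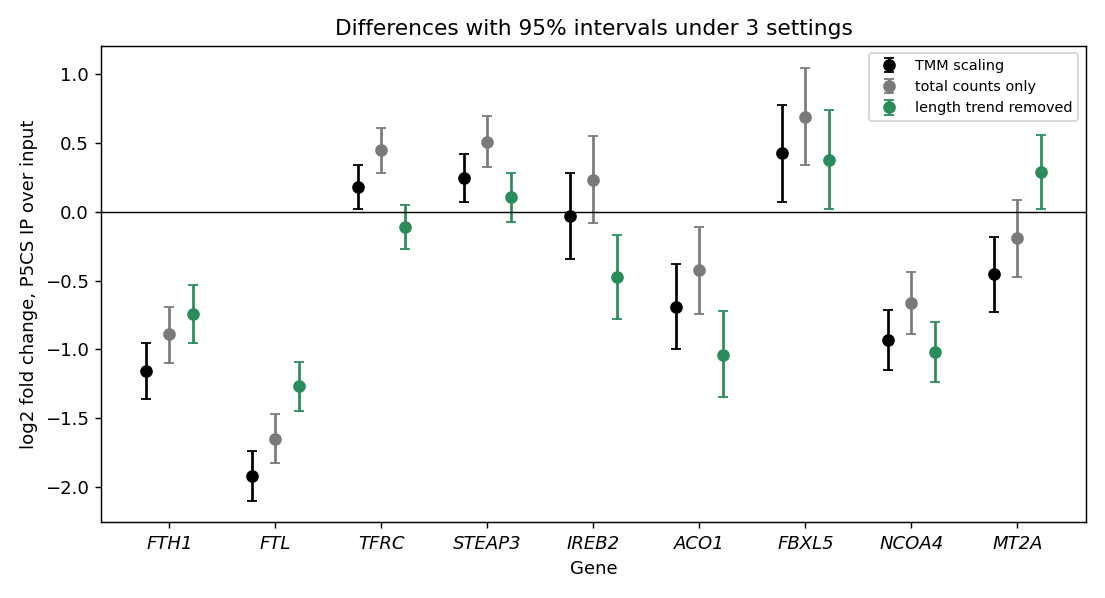
Difference of each gene between P5CS IP and input, as a log2 fold change with its 95% interval from the edgeR fit, under TMM scaling, with total counts only and with the length trend removed. FTL, FTH1, NCOA4 and ACO1 lie below 0 under all 3 settings, while TFRC, IREB2 and MT2A change side.

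In the authors' deposited table none of the 9 genes was marked as enriched, a mark that 4071 genes carry, all those over 1.5-fold with a p-value under 0.05 before adjustment. The log2 fold changes of the authors' deposited table were -1.90 for FTL, -1.14 for FTH1, -0.91 for NCOA4 and -0.67 for ACO1. For the uptake genes they were 0.27 for STEAP3 and 0.20 for TFRC, with adjusted p-values of 0.00913 and 0.0376 in the authors' deposited table. FBXL5 had an adjusted p of 0.0672 there.

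Gene length moved with the difference across all genes, and the gene models of the 9 ran from 606 nt (MT2A) to 9474 nt (IREB2). In the shortest quintile of genes tested (58 to 1633 nt) the median log2 fold change was -0.65, with quartiles of -1.51 and 0.38, and in the longest quintile (6247 nt and above) it was 0.38, with quartiles of -0.27 and 1.06. FTL (871 nt) and FTH1 (1591 nt) fell in the shortest quintile together with MT2A. FTL lay below the lower quartile of that quintile and FTH1 between its lower quartile and its median. With the length trend removed FTL stood at -1.27 and FTH1 at -0.74, smaller than the values above but still called (adjusted p = 2.72e-07 and 5.5e-05, edgeR quasi-likelihood test). NCOA4 (3989 nt) and ACO1 (7557 nt) lay below the lower quartiles of their quintiles, which were -0.64 and -0.27. TFRC (6495 nt) and IREB2 (9474 nt) lay between the lower quartile and the median of the longest quintile.

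**Figure D4:**
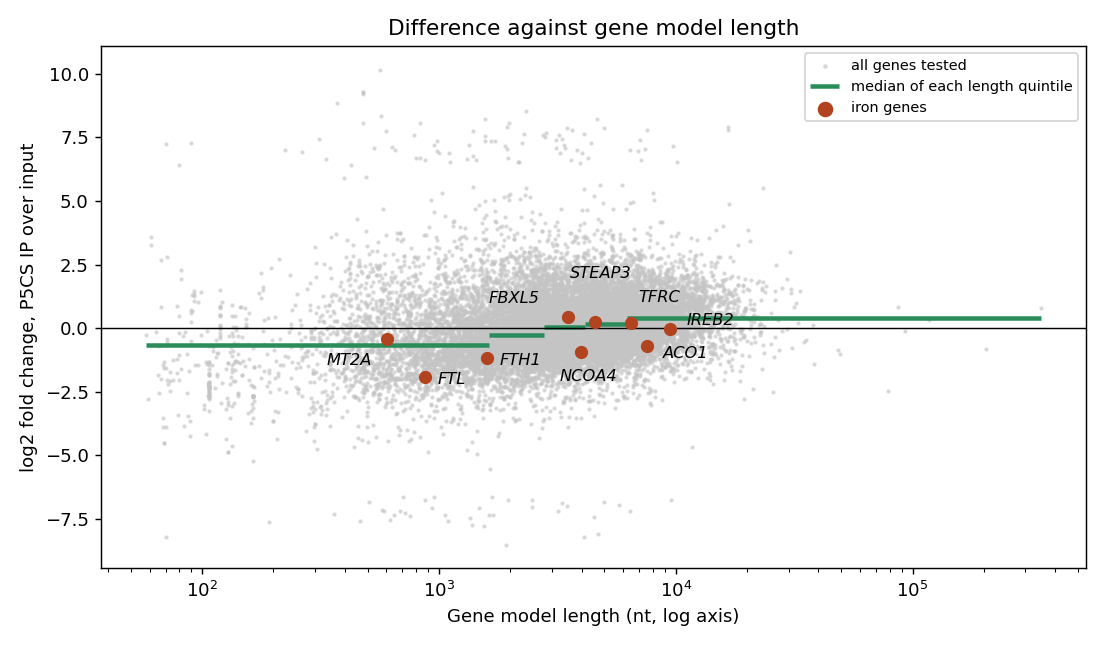
Log2 fold change of every gene tested against its gene model length in nucleotides on a log axis, with the median of each length quintile as a horizontal line and the 9 iron genes labelled. The medians rise from -0.65 in the shortest quintile to 0.38 in the longest, and FTL, NCOA4 and ACO1 lie well below the line of their own quintile.

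The genes whose levels over the 4 libraries lay closest to the ferritins and to TFRC were found by Euclidean distance of log2 CPM. For FTL they were OAZ1 (log2 fold change -1.94), H3C10 (-1.80) and SLC25A5 (-1.78), at distances of 0.195, 0.223 and 0.234. For FTH1 they were MDK (-1.14), PGRMC1 (-1.22) and PRR11 (-0.99), at 0.191, 0.212 and 0.212. For TFRC they were ATP13A3 (0.13), SREBF2 (0.10) and DDOST (0.05), at 0.116, 0.174 and 0.178, and none of these 3 passed. The likeness covers level and difference in 4 libraries only.

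Other genes of iron handling were divided as well. Of 16 tested genes of iron transport and its hormonal control, 6 rose, 5 fell and 5 did not pass (median log2 fold change -0.09). The highest was TF, the transferrin gene, with 62 and 222 counts in the IP libraries against 10 and 12 in the inputs (3.85, SE 0.699, adjusted p = 0.000824, edgeR quasi-likelihood test). Its IP libraries differed severalfold from each other and both exceeded the inputs; the value was 4.54 without IP library 1 and 2.57 without IP library 2 (adjusted p = 0.0404, edgeR). The lowest was PCBP2, one of the poly(C)-binding proteins that deliver iron to ferritin (-1.77, SE 0.172). BMP6, the ligand that drives hepcidin expression in liver, was also higher, at 6198 and 5814 counts against 1488 and 1820 (2.0, SE 0.0946). The ferroportin gene SLC40A1, the exporter of iron and itself an IRE-bearing mRNA, had 118 and 142 counts against 82 and 81 and did not pass (0.81, adjusted p = 0.0951, same edgeR test).

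Among 8 tested mRNAs outside the 9 that are listed as carrying an IRE, 3 rose, 2 fell and 3 did not pass (median 0.23). The highest called was CDC42BPA, a cytoskeletal kinase gene (1.27, SE 0.0974; 0.79 with the length trend removed). IRE-bearing mRNAs stood on both sides, with FTL and FTH1 lower and, beside CDC42BPA, the hypoxia factor gene EPAS1 (0.81, SE 0.183) and the amyloid precursor gene APP (0.68, SE 0.067) higher. Of 6 genes tied to the turnover of ferritin or the iron regulators, 3 rose, 2 fell and 1 did not pass (median -0.07). HERC2, the giant ubiquitin ligase that acts on NCOA4, had 34512 and 34419 counts in the IP libraries against 10776 and 12361 in the inputs (1.71, SE 0.0794). RBX1, the small RING subunit of the ligase that FBXL5 serves, had 60 and 65 counts against 258 and 336 (-2.10, SE 0.301).

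Iron-sulfur cluster genes were mostly lower: 17 of 26 tested fell and 1 rose (median -0.85). The lowest was NFU1, a cluster carrier of the mitochondrion (-2.71, SE 0.293), and the sole higher gene was NDOR1, a reductase of the cytosolic pathway (1.82, SE 0.0924). Of 16 tested heme genes, 6 fell, 1 rose and 9 did not pass (median -0.38). The heme median was -0.10 with the length trend removed and -0.12 with total counts only. TMEM14C, a porphyrin transporter of the mitochondrial membrane, was the lowest (-1.42, SE 0.101; -0.86 with the length trend removed), and CPOX, an enzyme of heme synthesis, was the highest (1.34, SE 0.219). Of the metallothionein and zinc list, 2 of 4 tested genes were higher and 0 were lower, with a median of 0.70. These were MT1E (2.08, SE 0.632), at 80 and 52 counts against 14 and 20, and the zinc exporter gene SLC30A1 (1.40, SE 0.103). The call of MT1E ended without IP library 1 (1.83, adjusted p = 0.137, edgeR) and without input 1 (1.91, adjusted p = 0.0508). Metallothionein genes are close in sequence, so reads may be divided between them. Against these list counts stand 25.4% of all genes tested higher and 25.6% lower.

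**Figure D5:**
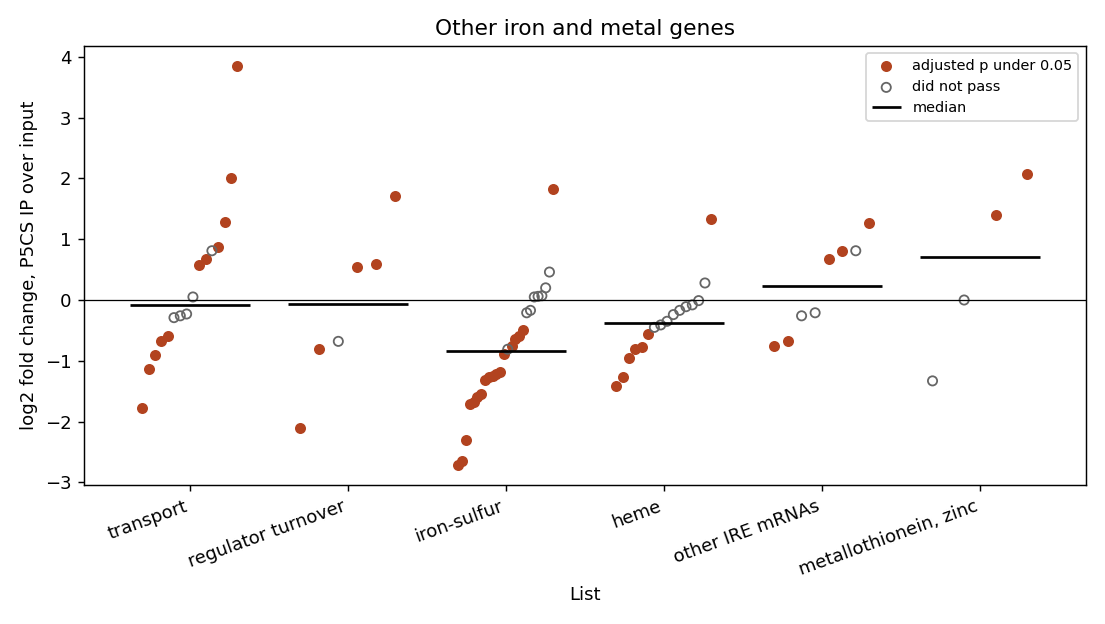
Log2 fold change between P5CS IP and input of each tested gene in 6 lists of iron and metal genes, with filled points for genes under an adjusted p of 0.05, open points for the rest and a bar at each median. The iron-sulfur list lies mostly below 0 with a median of -0.85, and the other lists spread to both sides.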

How the data were processed

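RIP-seq was done in 4 NCI-H1299 libraries. Read trimming by fastp 0.23.2, the aligner STAR 2.7.10a, featureCounts, DESeq2 and the build hg38 appear in the submitters' processing notes; the annotation and the strand setting were not given in the sources used here. Values came from 1 table. The authors deposited whole-number counts per gene, their FPKM values, and a comparison holding a mean normalised signal, a log2 fold change with its standard error, a test score (stat) and p-values, per the file headers. Columns were matched to samples by replicate number and by the word input. All count columns carry the word Cyto, which no label explains. About 86% of small counts (85.76 to 86.4% of those between 1 and 30) were even, so both mates of a pair appear to have been counted. One repeated symbol was dropped.

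The main test was edgeR 4.0.16 (R 4.3.3) with group as the sole term: filterByExpr kept 17304 genes, TMM set the scaling, and glmQLFit and glmQLFTest gave p-values. They were Benjamini-Hochberg adjusted over these, and genes under 0.05 were called. SE is the log2 fold change over the root of the F statistic, and intervals are 95%. A floor of 3 counts was 0.0647 to 0.0953 CPM on the library totals. Gene model lengths come from deposited counts over FPKM. Alternatives were DESeq2 1.42.0, other scalings, no filter, a replicate block, single libraries left out, and the length trend removed by loess (span 0.3) as an offset. The test was run on simulated counts beforehand. Replicates were not identical (chi-square per degree of freedom 19.9 for the IPs and 18.9 for the inputs). Replicate differences of IP and input correlated at 0.000153, so no shared replicate effect was visible over all genes. The main test did not pair the replicate numbers. The correlation cannot show that IP and input of the same number were prepared apart. The named genes are the 9 chosen genes, the highest and lowest called gene of each list, the 3 ferritin pseudogenes with most counts and the 3 nearest genes of FTL, FTH1 and TFRC; a gene that this rule names is not reported here, and BMP6, SLC40A1, EPAS1 and APP were added after their values were seen. The members and lists were chosen with earlier results of these data known. Identifiers were matched to RefSeq GRCh38.p14 (18055 of 18120).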

Additional observations from a re-analysis of the deposited data

How the results depend on the processing

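FTL, FTH1, NCOA4 and ACO1 kept their direction and their calls under all 11 alternatives run. The number of the 9 genes called higher, 2 with all libraries, was 0 with the length trend removed, 1 (MT2A) with the replicate block and the length trend removed together, and ranged from 0 to 2 when single libraries were left out. Signs turned for TFRC with the length trend removed (-0.11, and -0.11 with the replicate block as well), for MT2A under the same settings (0.29, and 0.27 with an adjusted p of 0.00921 in edgeR, while IREB2 took its place among 5 genes called lower), and for IREB2 with total counts only (0.23) and with single libraries left out (-0.14 to 0.08, above 0 without IP 1 or input 1). Total-count scaling moved the median of all genes to 0.25, and gave 3 iron-sulfur and 2 heme genes as higher, against 1 each. The replicate block alone called 3 of the 9 genes higher, since TFRC then passed (adjusted p = 0.0473, edgeR), and changed no other call among them. DESeq2 size factors in edgeR and total counts only also gave 3 genes called higher. The cause of these changes was not tested, and where a library was left out 1 group held a single library assumed to vary like the other group. The FTL to FTH1 log2 ratio difference of -0.76 lay between -0.81 and -0.71 under the 6 alternatives run for it. These left out single libraries from groups that did not overlap, added 1 to the counts, or added the few pseudogene counts. They could therefore hardly turn its sign. The length trend was not removed from this ratio. With that trend removed the separate log2 fold changes were -1.27 for FTL and -0.74 for FTH1.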
